A study of Mus musculus with 4 samples.

Results

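The cells described here came from mouse KPC tumours treated with the STING agonist ADU-S100 alone, or with ADU-S100 together with an agonist antibody to the lymphotoxin-β receptor (anti-LTβR). Single-cell RNA was read as unique molecular identifier (UMI) counts. Barcodes were taken that held 300 to 5000 genes and in which mitochondrial transcripts made up 6% of UMIs or less. This left 15698 of 16322 barcodes in the combination library and 14326 of 15404 in the ADU-S100 library, together 30024 of the 51841 barcodes kept in all 4 libraries. The tumours were grown under the skin of male C57BL/6NHsd mice, 8 to 10 weeks old by the study's methods although its sources differ on the upper age, from a pancreatic cancer line. The line came from a mouse in which Pdx1-Cre, active in the pancreas, switches on oncogenic alleles, among them p53 R172H (LSL.R172H/+). ADU-S100 was injected into the tumour once at 2 µg, anti-LTβR was given into the peritoneum 4 times at 100 µg, and tumours were taken on day 14. The untreated group and the group given anti-LTβR alone serve as background. In each group 10 tumours were pooled before live CD45+ cells were sorted, so each group was 1 library, no difference has a replicate check here and no test between groups was run. The study also made another single-cell experiment of this kind, which was not analysed here. All intervals are 95% intervals that cover counting error only.

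STING is a cytosolic sensor protein that, once bound by cyclic dinucleotides, drives type I interferon and inflammatory gene expression. LTβR is a receptor of the tumour necrosis factor family on stromal and myeloid cells. Its ligands are lymphotoxin α1β2 (Lta, Ltb) and LIGHT (Tnfsf14) from lymphocytes, and it signals through NIK (Map3k14) to the non-canonical NF-κB subunits Nfkb2 and Relb. It is best known for organising lymph nodes and tertiary lymphoid structures. The comparison asked what the addition of the LTβR agonist did to tumour leukocytes already exposed to the STING agonist.

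Cells were sorted into gates by their transcripts. The T cell gate needed at least 2 of Cd3d, Cd3e and Cd3g, the neutrophil gate at least 2 of Csf3r, Cxcr2, G0s2 and Hdc with no Csf1r, and the macrophage/monocyte gate Csf1r with no Cd3e or Cxcr2. With values in the order untreated, ADU-S100, anti-LTβR and combination, as in all sets of 4 below, the neutrophil gate held 5.2, 30.7, 6.47 and 8.06% of kept barcodes. The combination share was 0.263 times that of ADU-S100 (0.248 to 0.279). The T cell gate held 14.1, 3.65, 11.6 and 6.48%, a ratio of 1.78 (1.6 to 1.97), and the macrophage/monocyte gate 46.6, 37.3, 48.7 and 44.9%, a ratio of 1.2 (1.17 to 1.24). The T cell and macrophage/monocyte ratios moved with the gate. They were 1.23 and 1.02 when all 3 Cd3 genes or at least 2 Csf1r UMIs were required, and 2.63 and 2.14 when cells with 2 or more markers of another class were left out. These shares also depend on the number of neutrophils. Of kept barcodes outside the neutrophil gate, the macrophage/monocyte gate held 53.8% with ADU-S100 (52.8 to 54.7%) and 48.8% in the combination (48.0 to 49.6%), so its ratio turned to 0.908 (0.886 to 0.931), and the T cell gate held 4.98 and 6.96%, a ratio of 1.4 (1.26 to 1.55). Between 28.6 and 40.8% of barcodes fell in no gate, the most in the combination, and at most 0.278% in more than 1.

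**Figure D1:**
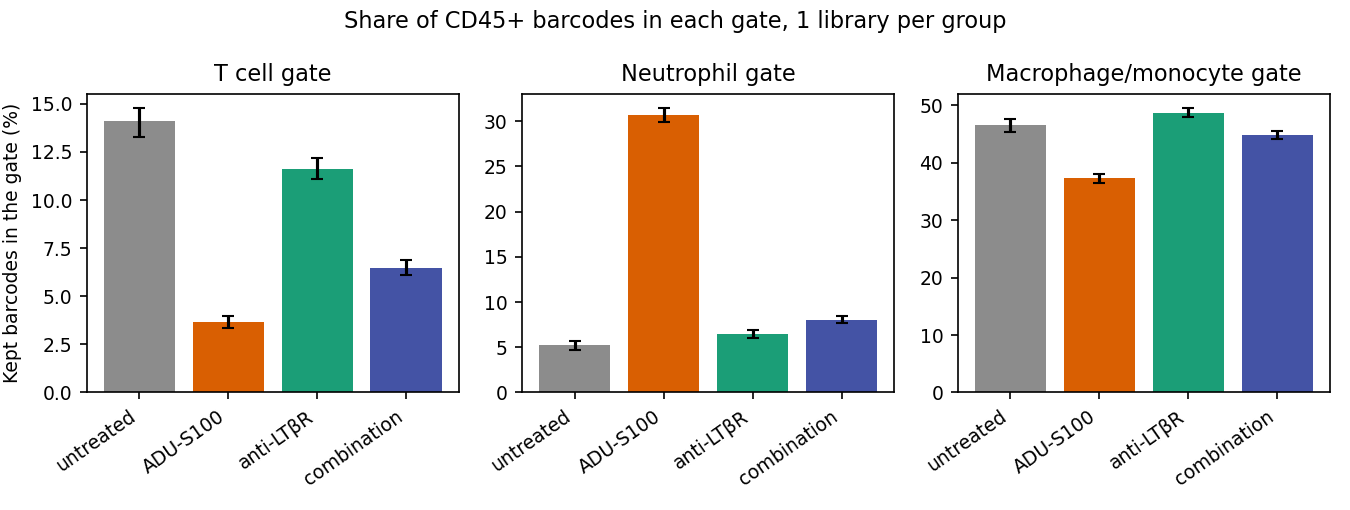
Share of kept barcodes in the T cell, neutrophil and macrophage/monocyte gates (%), 1 bar per library with its exact binomial 95% interval. The neutrophil gate stood at 30.7% with ADU-S100 alone and at 5.2 to 8.06% in the other 3 libraries.

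The combination library was the shallowest, with a median of 2235 UMIs per kept barcode against 3235 for ADU-S100. Within the gates the medians of the ADU-S100 and combination libraries were 4568.0 and 2372.5 in T cells, 2263.0 and 1074.0 in neutrophils, and 7938.0 and 3554.5 in macrophages and monocytes. The 2 libraries shared 83 barcode sequences, against 34 to 61 for the other pairs. Each gate held all 8 markers of its class. In the ADU-S100 and combination libraries the neutrophil markers summed to 57392 and 46931 UMIs per 1000000 (CPM) in the neutrophil gate, the T cell markers to 2620 and 2668 CPM in the T cell gate, and the macrophage/monocyte markers to 6195 and 5658 CPM in their gate. RNA of other classes was present in every gate. Neutrophil markers summed to 1859 and 1084 CPM in the T cell gate and to 1978 and 1525 CPM in the macrophage/monocyte gate. Plasma cell markers went the other way, from 93.0 to 531 CPM in the T cell gate, from 431 to 1075 CPM in the neutrophil gate and from 250 to 594 CPM in the macrophage/monocyte gate. T cell markers in the neutrophil gate went from 39.6 to 145 CPM. At least 2 markers of another class were found in 55.4 and 34.0% of T cell gate cells, in 18.3 and 20.1% of neutrophil gate cells, and in 71.2 and 49.0% of macrophage/monocyte gate cells. The part of this RNA in the differences below was not tested.

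Levels are given as CPM, with UMIs summed over the cells of a gate, and differences as the log2 ratio of the combination CPM to the ADU-S100 CPM. Genes with at least 200 UMIs over both libraries were compared. A gene is called higher or lower at a 2-fold difference. In the macrophage/monocyte gate 10586 genes were compared, of which 277 (2.62%) were higher and 130 (1.23%) lower in the combination. The neutrophil gate had 240 of 4805 higher (4.99%) and 69 lower (1.44%), and the T cell gate 43 of 5149 higher (0.835%) and 39 lower (0.757%). Over all kept cells 601 of 12292 genes were higher (4.89%) and 392 lower (3.19%). The median log2 ratio of all genes compared was 0.11 in macrophages, 0.21 in neutrophils, 0.00 in T cells and 0.23 over all cells. Centred on these medians, the counts higher and lower became 223 and 171 in macrophages, 123 and 140 in neutrophils, and 353 and 572 over all cells. The share of calls that were higher then went from 68.1 to 56.6%, from 77.7 to 46.8% and from 60.5 to 38.2%. Medians of gene lists are therefore set beside the median of all genes.

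Some inflammatory genes of macrophages and monocytes were lower with anti-LTβR added. Of 19 measured genes of inflammatory macrophages, 6 were lower by 2-fold and none higher, against 1.23% of all genes lower, and 18 of 19 lay below the median of all genes. The list's median log2 ratio was -0.86. The 6 were Tnf, Il1a, Il10, Clec4e, Clec4d and Inhba.

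Tnf, which encodes the inflammatory cytokine TNF, was at 60.2, 231, 74.5 and 64.0 CPM in the macrophage/monocyte gate, a log2 ratio of -1.85 (-1.93 to -1.78). The ADU-S100 library stood alone at the high end, and the combination lay next to the untreated library. Il1a, which encodes the alarmin interleukin-1α, was at 221, 737, 363 and 281 CPM, and Il10, which encodes an anti-inflammatory cytokine, at 17.3, 52.0, 19.3 and 18.8 CPM, with log2 ratios of -1.39 (-1.43 to -1.36) and -1.46 (-1.6 to -1.33). Clec4e, which encodes the C-type lectin Mincle, was at 143, 522, 218 and 195 CPM, a log2 ratio of -1.42 (-1.46 to -1.38). All 4 genes had the same order, with ADU-S100 highest, then anti-LTβR, the combination and the untreated library, although the counting intervals of the last 3 overlapped for Il10, and those of the combination and the untreated library for Tnf. Saa3, an acute-phase gene, was at 19.6, 168, 68.7 and 48.9 CPM (log2 ratio -1.78, -1.86 to -1.7), and Gpr84, a receptor for medium-chain fatty acids, at 11.1, 25.7, 13.9 and 7.54 CPM (-1.76, -1.98 to -1.56). Il23a, which encodes the p19 subunit of interleukin-23, was at 2.36, 41.5, 7.6 and 7.71 CPM (-2.43, -2.63 to -2.23). With each cell thinned to 500 UMIs, 1.65% of gate cells had an Il23a UMI with ADU-S100 and 0.298% in the combination, against 0.772 and 0.302% of T cell gate cells. The combination share is at background, so the size of the Il23a difference is uncertain. The log2 ratio was -1.34 without cells that carried markers of another class, and neutrophils held more of its RNA, at 99.7, 208, 57.5 and 153 CPM. Mmp8, Nrg4 and Proz completed the 8 lowest log2 ratios within the limits for named genes, at -1.94, -2.04 and -1.73. Mmp8 encodes a neutrophil collagenase, and neutrophil marker RNA in this gate summed to 1978 CPM with ADU-S100 and 1525 CPM in the combination.

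**Figure D2:**
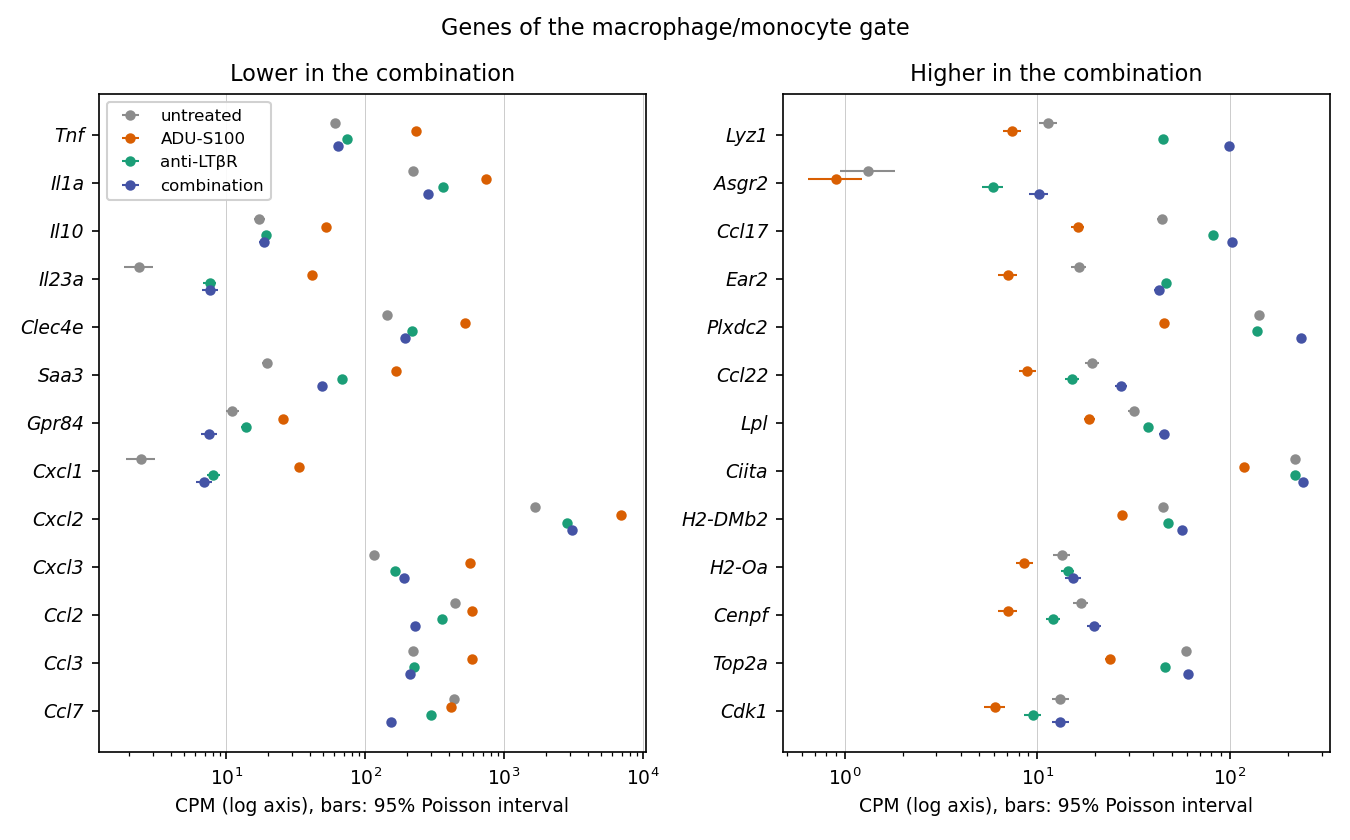
CPM on a log axis of 26 genes in the macrophage/monocyte gate of the 4 libraries, with 95% Poisson intervals. On the left the ADU-S100 library is the highest for every gene but Ccl7, and on the right it is the lowest for every gene.

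The chemokines of macrophages and monocytes moved apart. Of 19 measured, 7 were lower (Cxcl1, Cxcl2, Cxcl3, Ccl2, Ccl3, Ccl4 and Ccl7) and 2 higher (Ccl17 and Ccl22), against 1.23 and 2.62% of all genes, with a median log2 ratio of -0.34. The neutrophil attractants Cxcl1, Cxcl2 and Cxcl3 are neighbours on chromosome 5 and are ligands of the receptor Cxcr2. Cxcl1 was at 2.43, 33.4, 8.1 and 6.94 CPM, a log2 ratio of -2.26 (-2.48 to -2.06). Cxcl2 and Cxcl3 were not taken by the rule for named genes and were chosen after their values were seen, because they share this cluster. Cxcl2 was at 1658, 6896, 2848 and 3075 CPM (-1.17, -1.18 to -1.15) and Cxcl3 at 115, 571, 165 and 190 CPM (-1.59, -1.63 to -1.55). The ADU-S100 library was highest in all 3. In the neutrophil gate, where these chemokines were more abundant, Cxcl2 and Cxcl3 had log2 ratios of -0.6 and -0.77. Csf3, which encodes the neutrophil growth factor G-CSF, was at 0.748, 13.6, 3.4 and 2.15 CPM over all cells (-2.65, -2.96 to -2.37).

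The promoters of the 3 chemokine genes are shown because the genes differed in the same direction and are textbook targets of NF-κB. Each is a window of 300 bases from RefSeq (GRCm38.p6) around the transcription start, on the + strand, in lower case with the letters that match the κB motif in capitals. The fifth and the eighth letter of the motif could be any base and the others are as in the capitals. Both strands were searched, the motif was chosen knowing that such promoters hold it, and 394 of 32851 promoters of the same length (1.2%) held it. Cxcl1 lies at chr5:90890995-90891294, Cxcl2 at chr5:90903649-90903948 and Cxcl3 at chr5:90785851-90786150. A match describes letters in this window and not a bound site.
Cxcl1: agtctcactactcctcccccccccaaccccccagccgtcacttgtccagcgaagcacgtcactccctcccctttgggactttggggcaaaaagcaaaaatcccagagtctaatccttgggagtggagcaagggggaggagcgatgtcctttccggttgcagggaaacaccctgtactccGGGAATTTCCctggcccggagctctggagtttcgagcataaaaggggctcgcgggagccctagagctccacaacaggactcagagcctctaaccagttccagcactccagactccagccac
Cxcl2: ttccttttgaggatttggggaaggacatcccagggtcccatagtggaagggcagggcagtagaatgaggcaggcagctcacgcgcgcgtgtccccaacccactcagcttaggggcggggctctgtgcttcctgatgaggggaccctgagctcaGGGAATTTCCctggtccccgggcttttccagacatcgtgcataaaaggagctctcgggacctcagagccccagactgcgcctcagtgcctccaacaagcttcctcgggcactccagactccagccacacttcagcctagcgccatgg
Cxcl3: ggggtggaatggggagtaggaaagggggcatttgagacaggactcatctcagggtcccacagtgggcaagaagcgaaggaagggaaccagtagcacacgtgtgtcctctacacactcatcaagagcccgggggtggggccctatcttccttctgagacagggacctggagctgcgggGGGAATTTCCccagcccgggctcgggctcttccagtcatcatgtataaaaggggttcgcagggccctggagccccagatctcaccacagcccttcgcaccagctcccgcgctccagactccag
Each of the 3 windows held 1 match, and the letters of the match were the same in all 3.

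The monocyte attractants Ccl2 and Ccl7 and the lymphocyte and myeloid attractant Ccl3 were also lower. Ccl7 was at 436, 418, 299 and 153 CPM, a log2 ratio of -1.45 (-1.49 to -1.4), so that the combination was the lowest of the 4 libraries and ADU-S100 did not stand above the untreated library. Ccl2 was at 441, 583, 357 and 227 CPM (-1.36) and Ccl3 at 221, 591, 225 and 209 CPM (-1.5). Against this, Ccl17, a ligand of Ccr4 on T cells and a product of dendritic cells and alternatively activated macrophages, was at 44.3, 16.2, 81.7 and 102 CPM (2.66, 2.54 to 2.78). Ccl22, which binds the same receptor, was at 19.3, 8.89, 15.2 and 27.1 CPM (1.61, 1.43 to 1.79). With each cell thinned to 500 UMIs, 0.281% of gate cells had a Ccl22 UMI with ADU-S100 and 0.738% in the combination, against 0.579 and 0.101% of T cell gate cells. For Ccl17 the shares were 0.281% (0.157 to 0.463%) and 2.1% (1.78 to 2.46%), against 0.193 and 0.402%. The ADU-S100 shares of both genes are at background, so the sizes of their differences are uncertain. In the ADU-S100 library 1 cell held 17.0% of the Ccl17 UMIs and 12.9% of the Ccl22 UMIs, and the dendritic cell markers in this gate summed to 54.9 CPM with ADU-S100 and 80.6 CPM in the combination.

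These differences were seen in cells rich and poor in complement C1q. Macrophage/monocyte gate cells with at least 2 C1q UMIs per 1000 made up 60.4, 48.4, 45.1 and 52.1% of the gate. In these cells the log2 ratios of Tnf, Il1a, Cxcl1 and Ccl3 were -1.73, -1.03, -2.29 and -1.26, and in the others -1.99, -1.65, -2.21 and -1.64. For Ccl7 the log2 ratio was -1.67 in the C1q-high cells and -0.69, within 2-fold, in the others. With each cell thinned to 500 UMIs, so that both libraries had the same depth, 8.41% of gate cells had a Tnf UMI with ADU-S100 (7.68 to 9.19%) and 3.2% in the combination (2.8 to 3.63%), against 36.5 and 12.6% unthinned. In T cell gate cells, taken as the background, the thinned shares were 2.12 and 1.31%. For Il1a the thinned shares were 20.7 and 9.22%, with 1.93 and 1.21% in T cells, and for Ccl7 9.07 and 4.59%, with 0.386 and 0.402%. For Ccl3, which T cells also express, they were 15.6 and 6.77%, with 9.46 and 8.84% in T cell gate cells, and for Il10, which some T cells also express, 1.85 and 0.866% (0.663 to 1.11%), with 1.35 and 0.704%. The Il10 share in the combination was not above that of T cell gate cells beyond counting error, so the size of the Il10 difference is uncertain. No cell was left out by the thinning.

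MHC class II genes of macrophages and monocytes mostly lay above the median of all genes, few of them by 2-fold. All 16 genes of the list were compared, 14 lay above the median of all genes and 2 passed 2-fold (2.62% of all genes did), with a median log2 ratio of 0.51. Ciita, the master regulator of MHC class II transcription, was at 217, 119, 217 and 239 CPM (1.0, 0.95 to 1.06). H2-DMb2, which helps load peptides onto MHC class II, was at 45.0, 27.6, 47.9 and 56.6 CPM (1.04, 0.93 to 1.14). In both, ADU-S100 alone was the low library. The combination lay above the untreated and anti-LTβR libraries, with intervals that did not overlap theirs. The abundant members moved less, with Cd74 (the invariant chain) at 13583, 11488, 13394 and 16913 CPM (0.56) and H2-Aa at 5617, 4886, 5500 and 6923 CPM (0.5). After thinning, 59.7% of gate cells had an H2-Aa UMI with ADU-S100 (58.3 to 61.0%) and 77.6% in the combination (76.6 to 78.6%), and the background in T cell gate cells was 5.98 and 12.0%. In the neutrophil gate the thinned H2-Aa shares were 7.12 and 17.9%, with 6.48 and 12.8% in T cell gate cells, so the share with ADU-S100 was close to background. From ADU-S100 to the combination, markers of other cells with MHC class II went from 20.2 to 52.5 CPM for B cells and from 54.9 to 80.6 CPM for dendritic cells in the macrophage/monocyte gate, and from 11.3 to 121 CPM for B cells in the neutrophil gate. Their part in these values was not tested. Centred on the median of all genes, Ciita and H2-DMb2 were below 2-fold.

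Of 18 cell cycle genes in macrophages and monocytes, 5 were higher by 2-fold (Top2a, Cenpf, Ccnb1, Cdk1 and Ccna2), against 2.62% of all genes, and the median log2 ratio was 0.60. Top2a, the topoisomerase of dividing cells, was at 59.1, 23.8, 45.8 and 60.5 CPM (1.35, 1.24 to 1.46), and Cenpf, a centromere protein, at 16.9, 7.03, 12.1 and 19.8 CPM (1.49, 1.3 to 1.7). With all deposited barcodes, which adds cells above 5000 genes, the list's median was 0.19 and the log2 ratio of Top2a 0.57. The median was 0.07 without cells that carried markers of another class and 0.02 at 500 UMIs per cell. The T cell gate had no cell cycle gene past 2-fold of 9 compared.

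Within the same limits, the 8 highest log2 ratios in the macrophage/monocyte gate were those of Lyz1, Asgr2, Kcnip4, Gfra2, Ccl17, Ear2, Rbfox1 and Plxdc2. Lyz1, which encodes a lysozyme, was at 11.4, 7.39, 44.7 and 99.0 CPM (3.74, 3.58 to 3.91), and Ear2, a ribonuclease of eosinophils and non-classical monocytes, at 16.4, 7.03, 46.5 and 43.0 CPM (2.61, 2.43 to 2.8). Asgr2, a galactose-binding lectin, was at 1.33, 0.901, 5.88 and 10.2 CPM (3.49, 3.03 to 4.02). All 3 were higher in both libraries given anti-LTβR than in both without it. Plxdc2, a plexin-domain protein, was at 142, 45.4, 139 and 233 CPM (2.36, 2.29 to 2.43), so there the ADU-S100 library was the low one. Each of the 8 genes was found in at most 24.9% of gate cells, and 1 cell held 20.7% of the Lyz1 UMIs of the ADU-S100 library. Lyz1, Ear2 and H2-DMb2 have near-identical relatives whose reads the counting could have split, so their values are uncertain.

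Other groups of the gate moved little or in part, with counts to be read against 2.62% of all genes higher and 1.23% lower. Of 17 lipid-associated and remodelling genes, Gpnmb was lower at 15.3, 52.5, 35.3 and 25.2 CPM (-1.06, -1.18 to -0.94) and Lpl, the lipoprotein lipase, higher at 31.6, 18.6, 37.5 and 45.5 CPM (1.29, 1.16 to 1.41), with a list median of -0.36. Of 17 tissue macrophage and complement genes, Ms4a7 and Pf4 were lower (-1.13 and -1.08) and Cbr2 was higher (1.05), with a median of -0.05. C1qa was at 2400, 1876, 1479 and 1814 CPM (-0.05). Of 16 monocyte genes, F13a1, the coagulation factor XIII A chain, was lower (-1.06) and Ear2 higher, with a median of -0.09. Of 15 genes for B cell survival and T cell help, Il23a and Tnfsf9 (the ligand of 4-1BB) were lower, at -2.43 and -1.13. Tnfsf13b, the B cell survival factor BAFF, was at 51.0, 34.9, 35.2 and 34.3 CPM (-0.03, -0.14 to 0.09). All 18 hypoxia and glycolysis genes lay below the median of all genes, none by 2-fold, with a list median of -0.31.

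**Figure D3:**
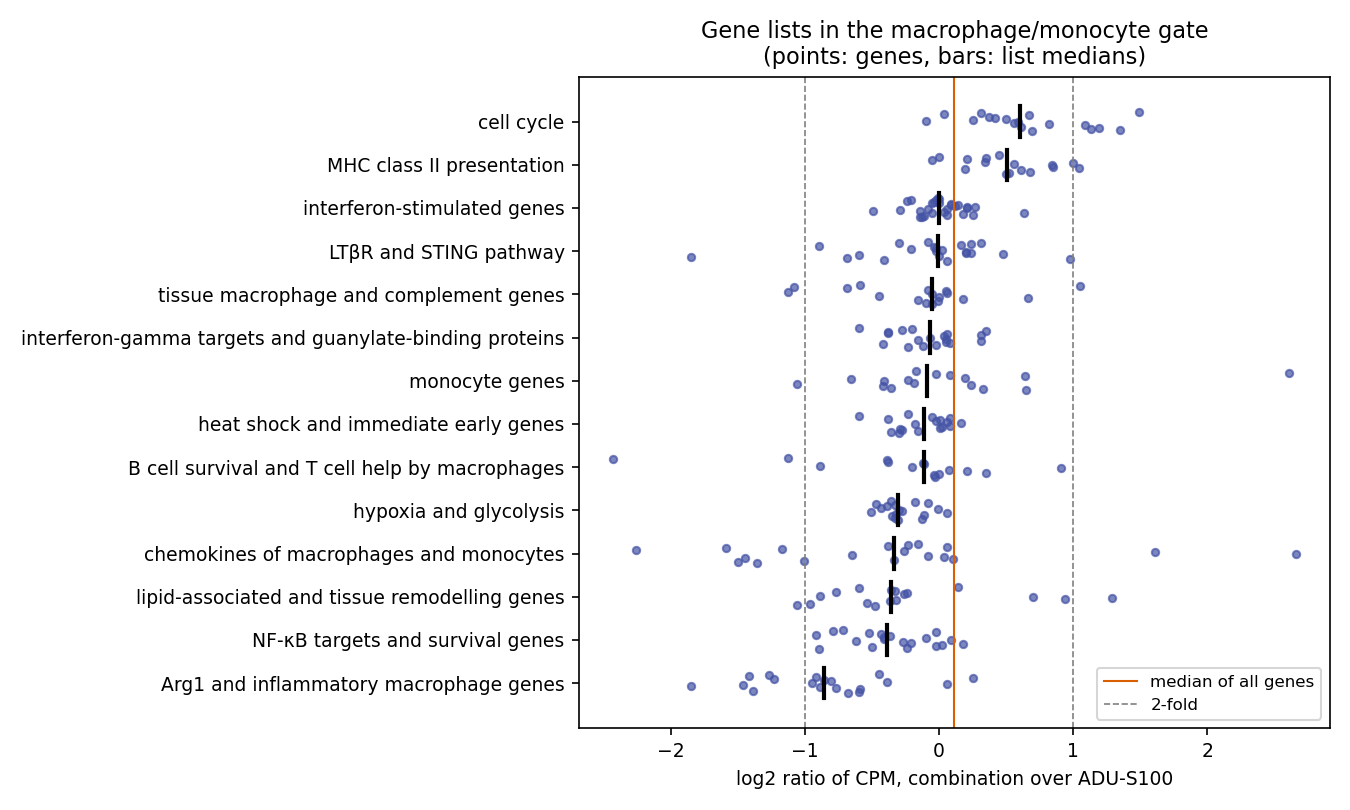
Log2 ratio of CPM, combination over ADU-S100, of the genes of 14 lists in the macrophage/monocyte gate, with list medians (black bars), the median of all genes (0.11, orange line) and 2-fold (dashed). The inflammatory list has the lowest median (-0.86) and the cell cycle list the highest (0.60).

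Most genes of the LTβR and STING pathways lay within 2-fold, as did most of all genes. Of 22 measured in macrophages and monocytes, Tnf was lower and none was higher, against 1.23 and 2.62% of all genes. The list median was -0.01 against 0.11 for all genes, and 14 of the 22 lay below the latter. Ltbr, the receptor bound by the antibody, was at 41.8, 38.7, 46.9 and 40.4 CPM (0.06, -0.05 to 0.17). The non-canonical subunits Nfkb2 and Relb were at 47.0, 61.9, 63.5 and 62.9 CPM (0.02, -0.06 to 0.11) and at 77.3, 106, 89.8 and 91.7 CPM (-0.21, -0.28 to -0.15). Sting1, which encodes STING, was at 90.9, 74.0, 82.5 and 82.5 CPM (0.16, 0.08 to 0.23). Nfkbia, which encodes the NF-κB inhibitor IκBα and is itself an NF-κB target, was at 572, 1698, 901 and 910 CPM (-0.9, -0.92 to -0.88), just inside 2-fold. Of 20 NF-κB targets and survival genes, 19 lay below the median of all genes, with a list median of -0.39. None passed 2-fold, against 2.62% of all genes higher and 1.23% lower. Ltb, a ligand gene, was at 288, 251, 264 and 251 CPM in T cells (0.0, -0.14 to 0.15), and Lta and Tnfsf14 had fewer than 200 UMIs there. In macrophages and monocytes Ltb was at 5.88, 5.67, 8.03 and 11.2 CPM (0.98, 0.74 to 1.22), while T cell markers in that gate went from 12.4 to 31.5 CPM and B cell markers from 20.2 to 52.5 CPM between ADU-S100 and the combination, and their part in the Ltb value was not tested. Over all cells, where neutrophils weigh by their number, Tnf, Nfkbia and Tnfsf14 of 22 genes were lower, against 3.19% of all genes. Their log2 ratios were -2.15, -1.41 and -1.09.

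Interferon-stimulated genes lay within 2-fold at day 14, and outside the T cell gate most lay below the median of all genes. Of 29 in macrophages and monocytes, 26 in neutrophils, 19 in T cells and 29 over all cells, none passed 2-fold in either direction. Of all genes, 2.62, 4.99, 0.835 and 4.89% were higher and 1.23, 1.44, 0.757 and 3.19% lower, so 0 lies near these shares. The list medians were -0.00, -0.03, 0.06 and -0.11, against 0.11, 0.21, 0.00 and 0.23 for all genes. Below the median of all genes lay 21 of 29, 21 of 26, 9 of 19 and 26 of 29. Isg20 over all cells was just inside 2-fold (-0.96). The widest values in macrophages were Ifi205 at 114, 217, 172 and 154 CPM (-0.49) and Ifi44 at 27.4, 17.8, 21.3 and 27.5 CPM (0.63). Isg15, a ubiquitin-like interferon product, was at 400, 457, 449 and 416 CPM (-0.14, -0.17 to -0.1). Among targets of interferon-gamma in macrophages, none of 19 passed 2-fold, against 2.62% of all genes higher and 1.23% lower. Of these 19, 16 lay below the median of all genes. The lowest was Nos2, the inducible nitric oxide synthase, at 129, 320, 298 and 211 CPM (-0.6, -0.64 to -0.55). In neutrophils 2 of 18, Iigp1 and Cxcl9, were higher (1.52 and 1.13), against 4.99% of all genes, and 11 of 18 lay below the median of all genes. For Iigp1 and Cxcl9, 15.5 and 27.1% of the combination UMIs were in 1 cell.

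Neutrophils, a smaller share of cells in the combination, also differed in their transcripts. Hilpda, a lipid droplet gene induced by hypoxia, was at 316, 902, 375 and 304 CPM in the neutrophil gate, a log2 ratio of -1.57 (-1.7 to -1.44), with ADU-S100 as the high library. Of 18 inflammatory cytokine and chemokine genes, 2 were lower (1.44% of all genes were), none was higher and 15 lay below the median of all genes, with a list median of -0.43. These were Tnf, at 339, 451, 271 and 214 CPM (-1.07, -1.23 to -0.92), and Il1a, at 718, 1209, 790 and 593 CPM (-1.03, -1.12 to -0.94). Ccl3 was at 3855, 5293, 3407 and 2855 CPM (-0.89, -0.93 to -0.85), and in all 3 genes the combination was the lowest of the 4 libraries. Il1b, an inflammatory cytokine abundant in neutrophils, was at 21342, 22938, 19824 and 21539 CPM (-0.09). After thinning to 500 UMIs, 20.9% of neutrophil gate cells had a Hilpda UMI with ADU-S100 (19.7 to 22.1%) and 8.77% in the combination (7.27 to 10.5%), with 8.7 and 6.07% in T cell gate cells. The combination share was close to that of T cell gate cells, so the size of the Hilpda difference is uncertain. The thinned shares for Il1a were 28.6 and 17.1%, with 2.02 and 1.09% in T cells.

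Hypoxia and glycolysis genes of neutrophils mostly lay below the median of all genes, 17 of 18 of them, with 1 lower by 2-fold (1.44% of all genes were) and a list median of -0.43. Ero1a, an endoplasmic oxidase, was at 571, 809, 536 and 385 CPM (-1.07, -1.19 to -0.96). Ldha, lactate dehydrogenase A, was at 429, 820, 502 and 438 CPM (-0.91, -1.02 to -0.8), and Bnip3, a mitophagy receptor, at 139, 236, 148 and 119 CPM (-0.98, -1.2 to -0.78). Ndrg1 went the other way at 73.7, 74.1, 89.8 and 143 CPM (0.95, 0.74 to 1.16), but 1 cell held 21.5% of its UMIs in the combination. Of 16 genes of tumour-associated neutrophils, Hilpda, Gpnmb and Cstb were lower, against 1.44% of all genes, and the list's median was -0.26. Gpnmb was at 18.1, 59.5, 53.1 and 18.9 CPM (-1.63, -2.21 to -1.14). The gate genes Csf3r and Hdc, given as a description, were at 1522, 1446, 1698 and 1616 CPM and at 3683, 2779, 2717 and 2916 CPM. S100a8 and S100a9, abundant alarmins of neutrophils, had log2 ratios of -0.32 and -0.33.

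The granule genes of immature neutrophils were higher by count, 5 of 12 past 2-fold against 4.99% of all genes, with a median of 0.66 against 0.21 for all genes, but single cells carried several of them. In the combination library 1 cell held 97.2% of the Camp UMIs, 83.3% of the Ltf UMIs and 67.5% of the Ngp UMIs, so these genes, which encode cathelicidin, lactoferrin and a granule protein, were not taken by the rule for named genes and are given after their values were seen. The thinned share of gate cells with a Ltf UMI was 1.46% with ADU-S100 (1.12 to 1.85%) and 1.11% in the combination (0.606 to 1.85%), with 0 and 0.597% in T cell gate cells. For Camp the shares were 0.0455% (0.00551 to 0.164%) and 0.237% (0.0489 to 0.691%), and for Ngp 0.364% (0.208 to 0.59%) and 0.632% (0.273 to 1.24%), so the intervals overlapped for all 3. The other 2 of the 5 were Chil3 (2.65), with 35.5% of its UMIs in 1 cell, and Lyz2 (1.21), a gene of macrophages as well. Macrophage/monocyte markers in the neutrophil gate summed to 561 CPM with ADU-S100 and 811 CPM in the combination. Within the limits for named genes, the highest log2 ratios in the gate included those of Prkca, Cdkal1, Msi2, Chn2, Rhou, Yipf1 and B4galnt1, at 1.34 to 1.55 and each found in at most 9.24% of gate cells. The 8 lowest were those of Gramd1c, Plagl1, Garin1a, Cldn1, Enthd1, Slc32a1, Gpnmb and Hmga1. Of these Garin1a was found in the most cells, in 13.4% with ADU-S100 and 2.84% in the combination, at 28.3, 109, 34.5 and 28.9 CPM (-1.9, -2.36 to -1.5).

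**Figure D4:**
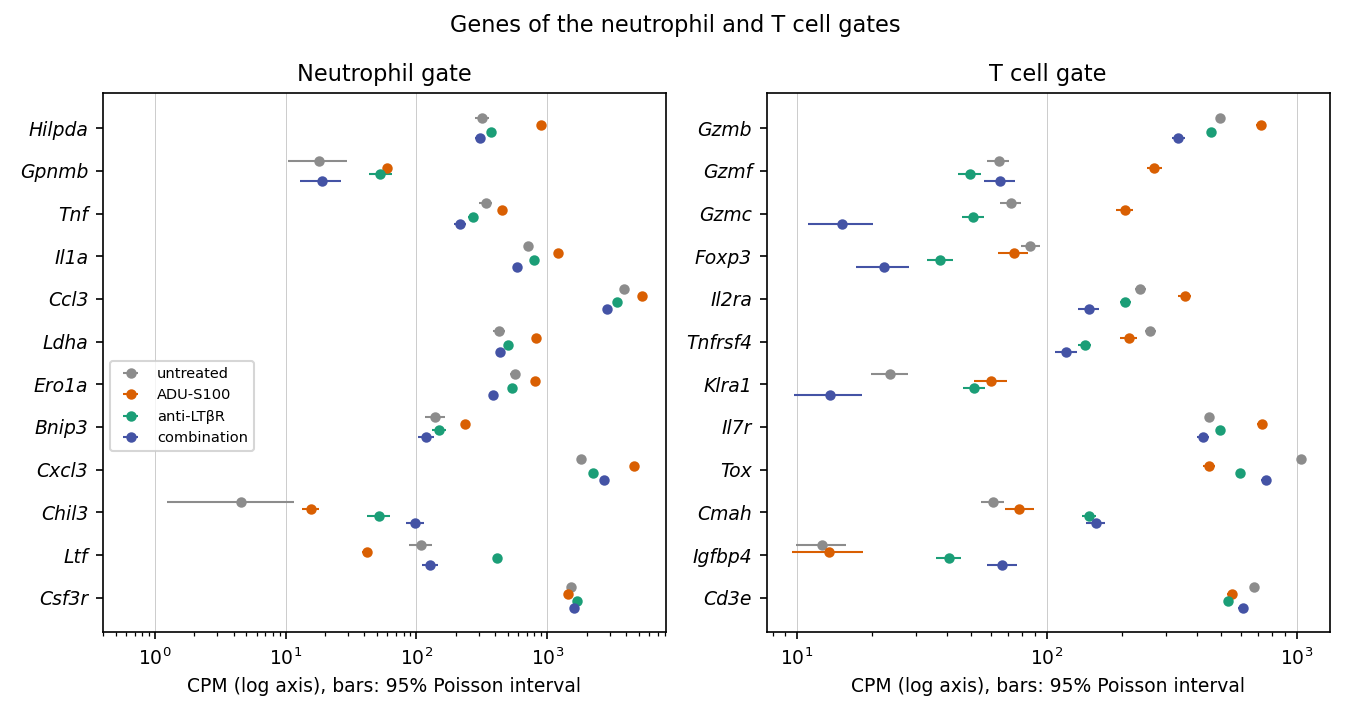
CPM on a log axis of 12 genes in the neutrophil gate and 12 in the T cell gate of the 4 libraries, with 95% Poisson intervals. Tnf, Il1a and Ccl3 of neutrophils and Gzmb, Foxp3 and Il2ra of T cells are lowest in the combination, and the gate genes Csf3r and Cd3e lie close together in all 4.

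Foxp3, Il2ra and Gzmb were lower in the T cells of the combination. Of 12 measured regulatory T cell genes, 2 were lower by 2-fold (0.757% of all genes were), none was higher and 11 lay below the median of all genes, with a list median of -0.60. Foxp3, the transcription factor that defines regulatory T cells, was at 86.1, 73.7, 37.4 and 22.3 CPM (-1.72, -2.14 to -1.33), and Il2ra, the α chain of the interleukin-2 receptor, at 237, 357, 206 and 148 CPM (-1.27, -1.44 to -1.11). The combination was the lowest library for both, and Foxp3 was lower in both libraries given anti-LTβR than in both without. Tnfrsf4, which encodes OX40, was at 260, 214, 142 and 119 CPM (-0.84, -1.03 to -0.65). CD4 T cells, in which Cd4 but neither CD8 chain gene was detected, made up 20.1, 20.3, 18.9 and 11.4% of the gate, and CD8 T cells, with the reverse, made up 47.3, 40.7, 40.1 and 55.1%. Within the CD4 T cells, 106 cells with ADU-S100 and 116 in the combination, Foxp3 was at 338, 254, 136 and 110 CPM (-1.2, -1.76 to -0.69) and Il2ra at 796, 957, 584 and 536 CPM (-0.83, -1.08 to -0.59). After thinning, Foxp3 UMIs were found in 2.29% of T cell gate cells with ADU-S100 (1.19 to 3.97%) and 1.08% in the combination (0.541 to 1.93%), whose intervals overlap, and Il2ra UMIs in 10.5% (8.02 to 13.5%) and 4.81% (3.58 to 6.31%). In neutrophils the thinned shares were 0.0687 and 0% for Foxp3 and 0.298 and 0.239% for Il2ra.

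Of 18 cytotoxic and effector genes, Gzmb, Gzmc, Gzmf and Tnf were lower and none was higher, against 0.757 and 0.835% of all genes, with a list median of -0.25 that became 0.75 at 500 UMIs per cell. Gzmb, which encodes granzyme B, was at 494, 719, 454 and 337 CPM (-1.09, -1.2 to -0.98). It was lower in CD4 T cells (-1.84) and in the remaining cells of the gate (-2.61), and its log2 ratio in CD8 T cells was -0.91 (-1.03 to -0.79), which is within 2-fold. Its thinned share was 16.8% with ADU-S100 (13.7 to 20.3%) and 10.0% in the combination (8.24 to 12.0%), with 0.206 and 0.0798% in neutrophils. Gzmc and Gzmf had the lowest log2 ratios of the list, at -3.74 and -2.06, but 1 cell of the ADU-S100 library held 63.9% of the Gzmc UMIs and 40.4% of the Gzmf UMIs, and both are named after their values were seen. Their thinned shares of cells were not lower beyond counting error, at 0.956% (0.311 to 2.22%) and 0.589% (0.217 to 1.28%) for Gzmc and at 1.53% (0.663 to 2.99%) and 1.67% (0.976 to 2.66%) for Gzmf. In neutrophils the shares were 0.0229 and 0.0798% for Gzmc and 0% for Gzmf. Tnf (-1.56) was found after thinning in 11 of 518 and 13 of 995 T cell gate cells, the shares used above as background. Neutrophil markers in this gate summed to 1859 and 1084 CPM, and their part in the Tnf value was not tested. Prf1, which encodes perforin, was at 540, 361, 425 and 481 CPM (0.42, 0.3 to 0.53), and Ifng, interferon-γ, at 211, 240, 153 and 203 CPM (-0.24, -0.4 to -0.09). Klra1, a receptor of the Ly49 family whose near-identical members make its counts uncertain, was at 23.7, 59.8, 51.4 and 13.6 CPM (-2.13, -2.66 to -1.65). NK cell markers in the T cell gate summed to 380 CPM with ADU-S100 and 284 CPM in the combination. Cpm, Clnk, Slc15a2 and Ramp3 were also among the 8 lowest, with log2 ratios of -1.35, -1.21, -1.14 and -1.13, and Clnk turned to 1.40 at 500 UMIs per cell.

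Naive and memory genes had a median of 0.00 over 15 genes, and checkpoint and exhaustion genes 0.02 over 16, with 1 and 0 higher by 2-fold (0.835% of all genes were) and none lower. The former was Igfbp4, a binding protein of insulin-like growth factors that marks naive T cells, at 12.6, 13.5, 40.6 and 66.5 CPM (2.29, 1.8 to 2.83), with 30.8% of its ADU-S100 UMIs in 1 cell. It was higher in both libraries given anti-LTβR, in CD8 T cells (1.86) and in CD4 T cells (3.66, 2.33 to 5.75). Il7r, the interleukin-7 receptor, was at 448, 727, 492 and 423 CPM (-0.78, -0.88 to -0.68). Tox, a transcription factor of exhausted T cells, was at 1046, 446, 592 and 753 CPM (0.75, 0.66 to 0.85), so that ADU-S100 was its lowest library. Cmah and Nkain2 were the other named genes higher by 2-fold, at 60.9, 77.8, 148 and 157 CPM (1.01, 0.78 to 1.25) and at 47.5, 44.6, 69.6 and 95.6 CPM (1.1, 0.8 to 1.41). Dnah8, Fam78a, Ptch1, Ptms and Myo10 had log2 ratios of 0.88 to 0.91. Of 7 helper T cell genes with enough UMIs, Il1rl1, Il1r1 and Cd40lg were lower (-1.65, -1.48 and -1.1), against 0.757% of all genes, but with the 3 Cd3 genes required the list's median went from -0.81 to 0.06.

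Over all kept cells the highest log2 ratios were mostly those of B cell genes. Of 17 B cell and plasma cell genes, 13 were higher (4.89% of all genes were) and none lower, with a median log2 ratio of 2.51 against 0.23 for all genes. Pax5, the transcription factor of B cell identity, had 43, 22, 668 and 553 UMIs (log2 ratio of CPM 5.18, 4.6 to 5.9), and in the ADU-S100 library 1 cell held 40.9% of them. Ms4a1, which encodes CD20, was at 1.6, 0.808, 13.7 and 14.4 CPM (4.14, 3.77 to 4.56). For Ms4a1 the 2 libraries given anti-LTβR lay close together and far above the other 2. In sums over all cells, more cells of a type and more RNA per cell cannot be told apart. Il5ra, the interleukin-5 receptor, was at 1.35, 0.66, 5.7 and 11.7 CPM (4.13, 3.73 to 4.6). Within the limits for named genes, the 8 lowest log2 ratios were those of Slc32a1, Plagl1, Phospho1, Mgam, Ofcc1, Csf3, Ccdc126 and Ankrd22, each found in at most 8.76% of cells with ADU-S100, and over all cells the neutrophil markers summed to 12346 CPM with ADU-S100 and 3155 CPM in the combination.

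Anti-LTβR given without ADU-S100 was read on the same macrophage genes. The log2 ratio of anti-LTβR to untreated, which shares no library with the ratio of the combination to ADU-S100, had a median of 0.61 over the inflammatory macrophage list, where that of the combination to ADU-S100 was -0.86, and 4 of 19 genes were higher by 2-fold where 6 were lower. Of all 10659 genes compared between anti-LTβR and untreated in this gate, 1.47% were higher and 0.281% lower. Il6, interleukin-6, was at 19.3, 98.2, 75.1 and 52.9 CPM (1.96 without and -0.89 with ADU-S100). For MHC class II genes the medians were 0.04 without and 0.51 with ADU-S100. In the T cell gate the regulatory list had medians of -0.62 and -0.60 and the cytotoxic list -0.34 and -0.25, with the same sign. Other T cell lists differed more, with 0.83 and 0.00 for naive and memory genes. The medians were 0.17 and -0.81 for helper T cell genes and -0.50 and 0.02 for checkpoint and exhaustion genes. The difference between the 2 settings was not tested.

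**Figure D5:**
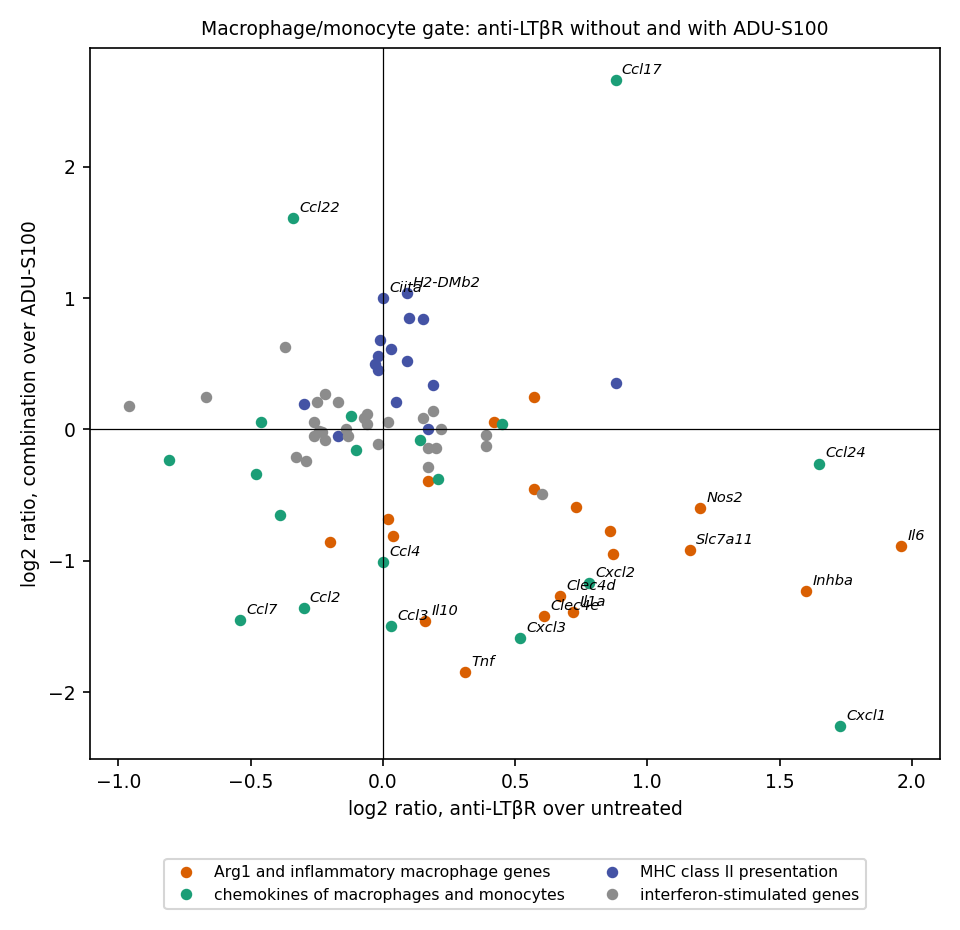
Log2 ratio of anti-LTβR to untreated (x axis) against that of the combination to ADU-S100 (y axis) for the genes of 4 lists in the macrophage/monocyte gate, with genes past 2-fold on either axis named. Inflammatory genes lie mostly to the lower right (list medians 0.61 and -0.86), and interferon-stimulated genes lie about 0 on the y axis.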

How the data were processed

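Live CD45+ cells of pooled tumours were profiled by droplet single-cell RNA-seq. The authors deposited UMI counts per gene and barcode, already filtered to cells. The matrix headers name Cell Ranger 8.0.1 and the submitters' notes Cell Ranger 7.1.0 with mm10, and this difference was not resolved. No doublet removal is stated in the study's methods.

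Barcodes with 300 to 5000 genes and at most 6% mitochondrial UMIs were kept. Cells that met more than 1 gate counted in each. UMIs were summed over the cells of a gate and library and divided by their total to give CPM. Log2 ratios are of CPM, with 0.5 UMIs added to each sum. Counts have exact Poisson, shares exact binomial (Clopper-Pearson) and log2 ratios exact binomial 95% intervals, for counting error only, and ratios of shares have log-normal approximate ones. With 1 library per group no test was possible. Genes with at least 200 UMIs over both libraries were compared and called at 2-fold, and the procedure was tested on simulated data. Python 3.11.15, numpy 2.4.6, scipy 1.17.1 and scanpy 1.11.5 were used.

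The cells, gene lists and alternatives were chosen with earlier results of these data known. Named genes were the 8 highest and 8 lowest log2 ratios per gate among genes found in at least 1% of cells, with at most 10% of UMIs in 1 cell and a CPM at least 0.5 times that over all cells, in the library where they were higher. Immunoglobulin and T cell receptor variable, mitochondrial, ribosomal protein, sex-linked and predicted genes, gate genes and markers of other classes were left out. Up to 4 members of each of 24 lists by the same limits, the members the question turns on and the gate genes were added. Other genes named were chosen after their values were seen. Of 30 interferon-stimulated genes 29 matched the features. Alternatives were the cell filter, depth, gates, second-class markers, UMI minimum, scaling, per-cell means and single cells. Leaving out the highest Scrublet scores and taking shares outside the neutrophil gate were added after seeing the data. Some named genes are not reported here.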

Additional observations from a re-analysis of the deposited data

Results flagged for a closer look

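Among the genes named or listed for a gate, read in that gate only and with at least 200 UMIs in both comparisons, 8 values moved in opposite directions when anti-LTβR was added with and without ADU-S100, each by at least 2-fold. They are given as the log2 ratio of the combination to ADU-S100, then that of anti-LTβR to untreated. In the macrophage/monocyte gate these were Il23a (-2.43 and 1.68), Cxcl1 (-2.26 and 1.73), Saa3 (-1.78 and 1.81), Inhba, which encodes the activin A subunit (-1.23 and 1.60), and Gpnmb, a glycoprotein of lipid-laden macrophages (-1.06 and 1.20). Inhba was at 131 CPM untreated, 658 CPM with ADU-S100, 396 CPM with anti-LTβR and 281 CPM with both. Csf3 moved so over all cells (-2.65 and 2.17), and Klra1 (-2.13 and 1.12) and Nos2 (-1.08 and 1.36) in the T cell gate, where 1 cell of the combination held 27.5% of the Nos2 UMIs and 1 cell of the ADU-S100 library a larger share. Nos2 is a gene of myeloid cells, and neutrophil markers in the T cell gate summed to 410 CPM untreated, 1859 CPM with ADU-S100, 824 CPM with anti-LTβR and 1084 CPM with both. Myeloid genes listed for other gates also moved so in the T cell gate, among them Cxcl3 (-2.35 and 1.93), Cxcl2 (-1.39 and 1.19), Clec4d (-1.57 and 1.13) and Clec4e (-1.27 and 1.09). The part of the neutrophil RNA in these values was not tested. Each side rests on 1 library per group, and the difference between the sides was not tested. The share of all genes that moved in opposite directions was not counted, so the count of 8 has no background. Of the 8, Il23a, Cxcl1, Saa3, Csf3 and Klra1 had been named for their large falls from ADU-S100 to the combination.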

How the results depend on the processing

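Of 852 values of named genes past 2-fold under 10 alternatives, 851 kept their direction and 759 stayed past 2-fold. The exception was Clnk in T cells, with a log2 ratio of 1.40 at 500 UMIs per cell. The causes of the changes below were not tested, except that thinning and higher UMI minimums leave fewer genes to compare. The ratios of gate shares (T cell, neutrophil, macrophage/monocyte) were 2.65, 0.284 and 1.24 with cells thinned to 500 UMIs before gating, 2.12, 0.186 and 1.39 at 1000 UMIs, and 1.23, 0.246 and 1.02 with stricter gates. Without cells that carried markers of a second class the T cell and macrophage/monocyte ratios were 2.63 and 2.14, and as shares of barcodes outside the neutrophil gate, a base chosen after seeing the data, they were 1.4 and 0.908. List medians moved by over 1.5-fold for B and plasma cell genes (3.20 at 500 UMIs, 3.46 at 1000 UMIs, 3.30 as the mean of each cell's CPM), cytotoxic T cell genes (0.75 at 500 UMIs) and helper T cell genes (0.47 at 1000 UMIs, 0.06 with stricter gates), and the other 485 of 491 did not.

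Of the ratios of gate shares, 7 of 20 stayed within their interval, and of the counts of genes past 2-fold, 43 of 84 stayed within 1.5 times. At 500 UMIs per cell 1 gene was higher and 0 lower in T cells, 15 and 15 in neutrophils, and 16 and 39 in macrophages and monocytes. At 1000 UMIs these were 4 and 3, 50 and 36, and 43 and 63. With a minimum of 50 UMIs they were 161 and 112, 1154 and 178, and 600 and 269, and over all cells 1058 and 636. With a minimum of 1000 UMIs they were 13 and 7, 31 and 23, and 82 and 67, and over all cells 239 and 227. Stricter gates gave 20 higher and 21 lower in T cells. Without cells carrying markers of a second class 16 were higher and 22 lower in T cells, 90 higher in neutrophils and 84 higher in macrophages and monocytes. All deposited barcodes gave 59 lower in T cells. Centring on the median of all genes gave 123 higher and 140 lower in neutrophils and 353 higher over all cells. The mean of each cell's CPM gave 1028 higher over all cells. Without the highest Scrublet scores (5.73% of ADU-S100 and 6.28% of combination barcodes, since its own threshold marked 0 in both) 24 were lower in T cells and 148 higher in neutrophils. No paired analysis was possible because each group had 1 library, and no replicate could be left out.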
